A study of Macaca fascicularis with 3 samples.

Results

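The cells described here are late oogonia-like germ cells of the cynomolgus monkey (Macaca fascicularis) with the lower levels of mitotic RNA among such cells. They were chosen from single-cell libraries as barcodes with at least 10000 UMIs (unique molecular identifiers, 1 per captured RNA molecule) and a mitochondrial share of 2% to 20% of UMIs. They also had under 200 CPM (UMIs of a gene as a scaled share of all UMIs) of POU5F1, under 500 of SYCE3, under 50 of STRA8 and under 100 of EGR4 and PIWIL4 together. Of the barcodes that met these limits, the lower 66.7% of each library by a mitotic score were kept, the score being the summed CPM of MKI67, TOP2A, UBE2C, CDC20, PLK1 and AURKB. This gave 691 of the 7827 deposited barcodes, 195 from the E13.5 library, 174 from E14.5 and 322 from E15.5. They are called interphase late barcodes below. The name stands for the lower score and does not place each barcode outside mitosis.

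The germ cells came from the cynomolgus embryonic stem cell line 15XRi-AGVT#7, of wildtype genotype, which carries the reporters TFAP2C-EGFP (AG) and DDX4-tdTomato (VT). They were cultured in aggregates with mouse ovarian somatic cells taken at E13.5, E14.5 or E15.5 (xenogeneic reconstituted ovaries, labelled ag49+52), and 1 library of polyA RNA was made for each mouse stage. Large reporter-positive germ cells and small reporter-negative mouse cells were sorted apart as DRAQ7-negative cells and mixed again before loading, so the share of germ cells in a library is not that of the culture. The labels call the cell type of all 3 libraries early oogonia. All libraries share 1 cell line and 1 reporter background, and the only labelled difference between them is the age of the mouse cells.

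In the primate fetal ovary, primordial germ cells that express POU5F1, NANOG and TFAP2C become oogonia. Oogonia divide by mitosis, reset DNA methylation, switch on the RNA-binding proteins DDX4 and DAZL, and later answer retinoic acid and BMP signals by expressing STRA8 and entering meiosis. ZGLP1 is a zinc finger regulator of the oogenic fate in mice, and MSX1 is a homeobox gene that BMP signals induce. Late oogonia stand between the POU5F1-positive state and the STRA8-positive state that precedes meiosis.

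The interphase late barcodes were set against 3 other gates of the same libraries. Mitotic late barcodes met the same limits and had the upper 33.3% of mitotic scores (98, 87 and 161 barcodes by rising mouse stage, the order of all triplets below). STRA8-positive barcodes differed from the interphase late gate by at least 50 CPM of STRA8 (121, 82 and 234), and POU5F1-high barcodes by at least 200 CPM of POU5F1 (65, 128 and 203); in both the mitotic score was at or under the highest score of the interphase late barcodes of that library. Deep barcodes with under 2% mitochondrial UMIs (228, 148 and 286) served as the measure of mouse cells, since the deposited features are monkey genes only. Their CPM are shares of the UMIs counted on monkey genes and not of all mouse RNA. Levels in mouse and germ cell barcodes are therefore not on the same scale. The gates were cut on expression in the same barcodes, so genes that vary with a gate gene differ between gates by construction, and the tests below describe the gates. The 24 genes of the rule were left out of them.

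The libraries held 2807, 1565 and 3455 barcodes with 44762884, 30607553 and 70850640 UMIs. The interphase late barcodes held 10699484, 7248327 and 14756352 of these UMIs, and the floor of 3 counts that a count of 0 allows was 0.280, 0.414 and 0.203 CPM. Their median depth was 53881, 41055.5 and 44073 UMIs, against 72731.5, 52967 and 60361 in mitotic late barcodes, 51934, 33236.5 and 44218.5 in STRA8-positive barcodes and 59817, 46897 and 49314 in POU5F1-high barcodes. The same barcode sequence occurred in more than 1 library for 686 barcodes. Of the interphase late barcodes, 100, 14 and 98 (51.3%, 8.05% and 30.4%) also occurred in another library, where the copy was shallow: between E13.5 and E15.5 its median was 1173.5 UMIs and its highest 3241. No barcode was in the interphase late gate of 2 libraries. The share was 58.2%, 23.0% and 35.4% in mitotic late barcodes, 3.08%, 0% and 2.46% in POU5F1-high barcodes and 55.4%, 8.54% and 34.6% in STRA8-positive barcodes. It was thus unlike that of the interphase late barcodes in POU5F1-high barcodes of E13.5 and E15.5 and in mitotic late barcodes of E14.5. Its part in the results was not tested beyond refitting each comparison without those barcodes.

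All 4 given markers were present. DDX4, the germ cell RNA helicase, stood at 145.4, 127 and 128 CPM in interphase late barcodes and at 8.30, 5.83 and 7.82 CPM in the mouse barcodes. DAZL, an RNA-binding regulator of germ cell translation, stood at 431, 365 and 374 CPM in interphase late barcodes and at 16.3, 20.2 and 22.2 CPM in the mouse barcodes. A DDX4 UMI was found in 95.4%, 93.1% and 95.3% of interphase late barcodes and in 5.70%, 5.41% and 6.29% of mouse barcodes, whose median depth was 12717.5, 12699.5 and 12949 UMIs. When every barcode was thinned to 10000 UMIs, the shares were 69.7%, 64.9% and 64.9% in interphase late barcodes and 5.26%, 3.38% and 4.55% in mouse barcodes. Only 2 of the 691 barcodes had neither a DDX4 nor a DAZL UMI.

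MSX1 varied more from barcode to barcode, and ZGLP1, the lowest of the 4 markers, was found in the fewest barcodes. How far counting noise sets the ZGLP1 share was not tested. A ZGLP1 UMI was found in 79.0%, 74.7% and 73.9% of interphase late barcodes (45.6%, 39.1% and 35.4% after thinning), and in 2.19%, 3.38% and 2.45% of mouse barcodes. MSX1 had a UMI in 89.2%, 78.2% and 83.9% of interphase late barcodes (69.2%, 56.3% and 61.5% after thinning), and in 2.19%, 5.41% and 5.59% of mouse barcodes. The median MSX1 level per barcode was 144.8, 95 and 105.2 CPM, with a 10th percentile of 0 in each library and a 90th percentile of 508, 359 and 328 CPM. DAZL was more even, with 10th percentiles of 189, 152 and 180 CPM and 90th percentiles of 679, 650 and 605 CPM.

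**Figure D1:**
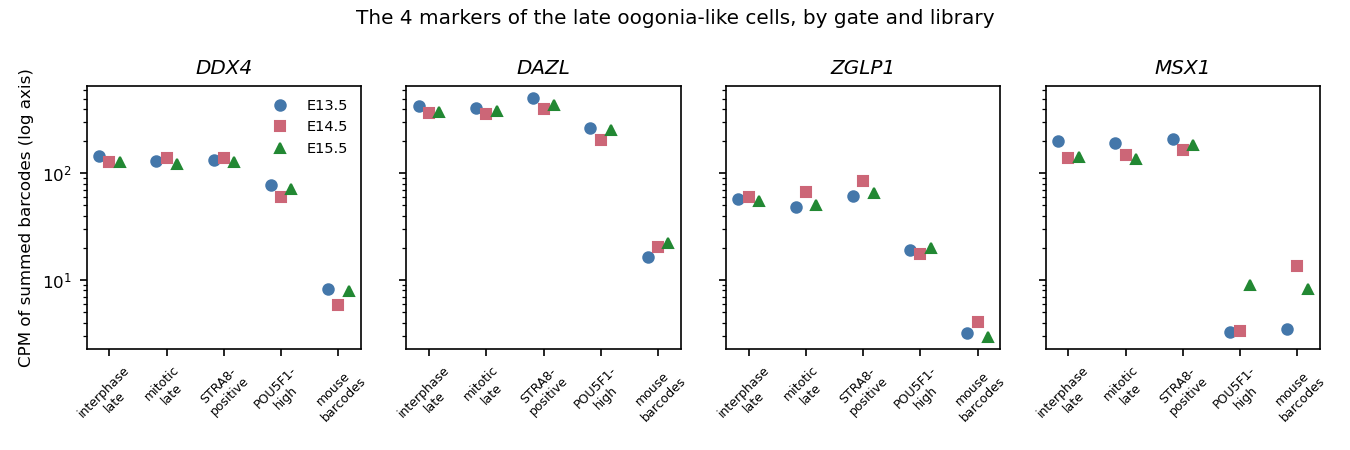
Level of DDX4, DAZL, ZGLP1 and MSX1 (CPM of summed UMIs, log axis) in interphase late barcodes and 4 other gates, with 1 point for each of the 3 libraries. MSX1 stood at 139 to 199 CPM in interphase late barcodes and at 3.25 to 8.92 CPM in POU5F1-high barcodes, while the interphase late, mitotic late and STRA8-positive points lay close together for all 4 genes.

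Markers of neighbouring states were present, at lower levels than in the gate of each state. The 10 early oogonia markers summed to 268, 301 and 348 CPM in interphase late barcodes, against 2610, 3117 and 2862 CPM in POU5F1-high barcodes. The 7 markers of retinoic acid-responsive premeiotic cells summed to 559, 483 and 531 CPM in interphase late barcodes, against 886, 920 and 979 CPM in STRA8-positive barcodes and 87.5, 82.2 and 101 CPM in POU5F1-high barcodes. Both sums hold genes of the rule. The 9 meiotic prophase markers, among them SYCE3 of the rule, summed to 248, 223 and 246 CPM in interphase late barcodes. The sums were 278, 289 and 249 CPM in STRA8-positive barcodes and 92.3, 87.6 and 99.8 CPM in POU5F1-high barcodes. SYCE3-high barcodes (31, 28 and 57), with at least 500 CPM of SYCE3, held far more of these 9 markers, 2099, 2673 and 2388 CPM. Within that list, 4 genes averaged under 5 CPM in interphase late barcodes. They included SPO11, the enzyme that makes meiotic double-strand breaks, at 0.935, 1.10 and 1.22 CPM, and PRDM9, which sets their position, at 0.748, 0.690 and 1.56 CPM. The recombination factor MEIOB, at 50, 51.2 and 40.9 CPM, and SYCP1, of the synaptonemal complex, at 15.9, 15.0 and 17.7 CPM, were well above them. Oocyte markers were low as well, at 36.5, 31.3 and 43.2 CPM over 10 genes.

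Markers of mouse supporting cells and stroma were low in the interphase late barcodes and not absent. The 9 markers of mouse supporting cells summed to 118, 150 and 147 CPM in interphase late barcodes, against 3401, 3294 and 3185 CPM in mouse barcodes, 76.2, 107 and 105 CPM in mitotic late barcodes, 126, 122 and 137 CPM in STRA8-positive barcodes and 61.3, 71.1 and 54.0 CPM in POU5F1-high barcodes. The 8 stroma markers summed to 97.6, 78.9 and 90.4 CPM in interphase late barcodes, against 1340, 890 and 1579 CPM in mouse barcodes, 44.8, 71.1 and 68.1 CPM in mitotic late barcodes and 20.5, 47.7 and 25.3 CPM in POU5F1-high barcodes. In interphase late barcodes 0 genes of either list were at 0, and WNT4, a supporting cell signal, stood at 6.54, 11.7 and 8.88 CPM against 511, 550 and 512 CPM in mouse barcodes. Both sums were higher in the interphase late barcodes than in the mitotic late and POU5F1-high barcodes of each library. STRA8-positive barcodes had a stroma sum of 87.5, 83.8 and 157 CPM. Neither sum was higher in interphase late than in STRA8-positive barcodes in every library. How far these sums measure the mouse share was not tested. FST, a follistatin, made up 51.7, 57.3 and 59.3 CPM of the supporting cell sum in interphase late barcodes. It stood at 107, 66 and 52.0 CPM in mouse barcodes, and the stroma sum does not hold it. GATA4 ran the other way, at 26.0, 24.6 and 18 CPM in interphase late barcodes and 37.3, 31.9 and 40.1 CPM in POU5F1-high barcodes. Other somatic lists did not separate the cells in this way. The 5 surface epithelium markers summed to 143, 210 and 132 CPM in interphase late barcodes and 147, 50.3 and 416 CPM in mouse barcodes. KRT19 alone gave 141, 209 and 131 CPM of the former. The 6 endothelium and blood markers summed to 17.8, 13.9 and 19.0 CPM against 7.67, 3.59 and 15.4 CPM. The part of mouse RNA in genes that mouse barcodes also hold was not tested. Refits without the 5% of barcodes highest in the supporting cell and stroma markers are given where they change a result.

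The rule sets how the mitotic score falls in these cells. The score cut lay at 2100.5, 1680.2 and 1706.0 CPM, and the median score was 384, 360 and 332 CPM in interphase late barcodes and 3442, 3294 and 3169 CPM in mitotic late barcodes. The members nearest the cut had 2100.5, 1680.2 and 1706.0 CPM and the nearest mitotic late barcodes 2153.6, 1706.1 and 1729.3 CPM, so the cut fell in an unbroken range. Of the interphase late barcodes, 35, 31 and 54 had a score over 1000 CPM and 20, 13 and 49 had one under 100 CPM. At the other limits the nearest barcodes inside and outside had 142 and 227 CPM of POU5F1 in E13.5, 169 and 231 in E14.5 and 190 and 207 in E15.5. For STRA8 they had 49.4 and 50.7, 49.8 and 50.5, and 49.8 and 50.4 CPM, and for SYCE3 498 and 519, 495 and 532, and 480 and 510 CPM. The 20 barcodes nearest the POU5F1 limit from inside had MSX1 at 50.4, 18 and 40.0 CPM, and the 20 nearest from outside at 9.43, 9.18 and 48.5 CPM.

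**Figure D2:**
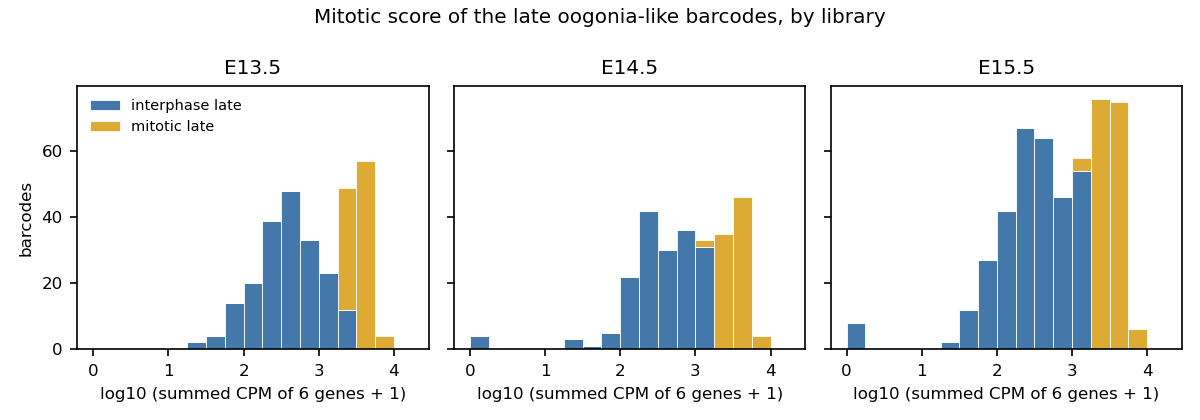
Number of late barcodes by mitotic score (log10 of summed CPM + 1) in each library, with interphase late barcodes in blue and mitotic late barcodes in gold. Scores run without a gap across the cut at 2100.5, 1680.2 and 1706.0 CPM, and most interphase late barcodes lie well under it, at medians of 384, 360 and 332 CPM.

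Against mitotic late barcodes, the interphase late barcodes had more RNA of the cell cycle inhibitor CDKN1C, of the germ cell survival factor NANOS3 and of several pluripotency-associated and primordial germ cell genes, and less of the G2 and M phase genes, of EZH2 and of the cohesin subunit STAG3. The given germ cell markers did not pass the test between these gates: log2 fold changes were -0.07 ± 0.06 for DDX4, -0.08 for DAZL, -0.01 for ZGLP1 and -0.09 for MSX1, with edgeR adjusted p-values of 0.42, 0.26, 0.92 and 0.48. In an edgeR quasi-likelihood fit of UMI counts summed per library and gate, with the library as a block, 2704 of 15060 genes were higher (18%) and 2985 lower (19.8%) in interphase late barcodes at an adjusted p under 0.05. A fold of at least 2 was met by 644 of the higher and 195 of the lower genes. The 3 libraries served as repeats although they differ in mouse stage. The block takes up differences between libraries, so p-values measure only how far gate differences vary between these libraries. That spread was pooled over all gates of the fit. Where values of 2 gates are said not to overlap, the share of all genes without overlap was not counted. Such a statement therefore only describes the gene named. Fold changes were scaled by TMM factors; library totals alone moved the median of all genes from 0.03 to 0.12 (log2) and split the calls as 3758 higher and 1926 lower.

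CDKN1C, a CDK inhibitor encoded by an imprinted gene, had the largest rise of the genes that the naming rule allowed. It stood at 46.1, 78.5 and 30.8 CPM in interphase late barcodes and at 2.87, 4.81 and 4.32 CPM in mitotic late barcodes. The log2 fold change was 3.47 ± 0.20 (SE, 3 libraries; edgeR adjusted p = 1.5e-12), higher in 3 of 3 libraries with no overlap. The RNA was uneven: a CDKN1C UMI was found in 31.3%, 33.9% and 26.1% of interphase late barcodes, and the 5 richest barcodes held 65.7%, 76.1% and 56.2% of its UMIs. Mouse barcodes held 6.71, 48.5 and 79.7 CPM of it. Without barcodes that had 3 or more CDKN1C UMIs, the log2 fold change was 1.54 (edgeR adjusted p = 8.1e-05), and with the lower 50% by mitotic score it was 0.92 (edgeR adjusted p = 8.0e-05).

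The next genes were spread over more barcodes. SLC16A8, a monocarboxylate transporter, stood at 22.4, 26.5 and 23.8 CPM in interphase late barcodes and at 4.37, 6.01 and 7.17 CPM in mitotic late barcodes (log2 fold change 1.92 ± 0.14, edgeR adjusted p = 2.4e-10). AMOT, an angiomotin that binds the Hippo effector YAP, stood at 45.6, 39.5 and 41.8 CPM in interphase late barcodes and at 10.9, 9.42 and 18.6 CPM in mitotic late barcodes (1.57 ± 0.14). PLK2, a polo-like kinase of G1, stood at 51.5, 53.4 and 51.8 CPM in interphase late barcodes and at 13.2, 17.6 and 20.1 CPM in mitotic late barcodes (1.52 ± 0.14, and 0.93 in the lower 50% by mitotic score). For these 3 genes every interphase late value lay above every mitotic late value. NANOS3, an RNA-binding protein needed for germ cell survival in mice, stood at 62.0, 81.0 and 102 CPM in interphase late barcodes and at 25.7, 26.0 and 35.3 CPM in mitotic late barcodes (1.37 ± 0.11, edgeR adjusted p = 4.4e-10), and these groups did not overlap either. Mouse barcodes, whose CPM are on another scale, held PLK2 at 87.8 to 103 CPM.

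KRT18 and KRT8, the paired keratins of simple epithelia, rose together. KRT18 stood at 373, 637 and 286 CPM in interphase late barcodes and at 135.4, 268 and 95.9 CPM in mitotic late barcodes (1.32 ± 0.12), and KRT8 at 181, 285 and 124 CPM against 69.9, 104 and 50.5 CPM (1.29 ± 0.14). For both genes E14.5 was the highest library in each gate, and mouse barcodes held KRT18 at 37.2 to 75.3 CPM. TXNIP, the thioredoxin-interacting protein, stood at 54.9, 47.7 and 72.6 CPM in interphase late barcodes and at 15.8, 20.2 and 29.0 CPM in mitotic late barcodes (1.33 ± 0.16), and at 118 to 259 CPM in mouse barcodes. PEG10, an imprinted gene derived from a retrotransposon, rose by 1.38 ± 0.21, but 5 barcodes held 74.4% of its UMIs in E14.5 and without that library the log2 fold change was 0.90. TKTL1, a transketolase-like enzyme, rose by 1.33 ± 0.21 and was not called without the block (edgeR adjusted p = 0.33) or in the lower 50% by mitotic score (log2 fold change 0.34). SLC25A29, a mitochondrial amino acid carrier, and RND3 rose by 1.46 and 1.32. Over the 12 highest and 12 lowest genes, the edgeR adjusted p was at most 2.3e-05.

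**Figure D3:**
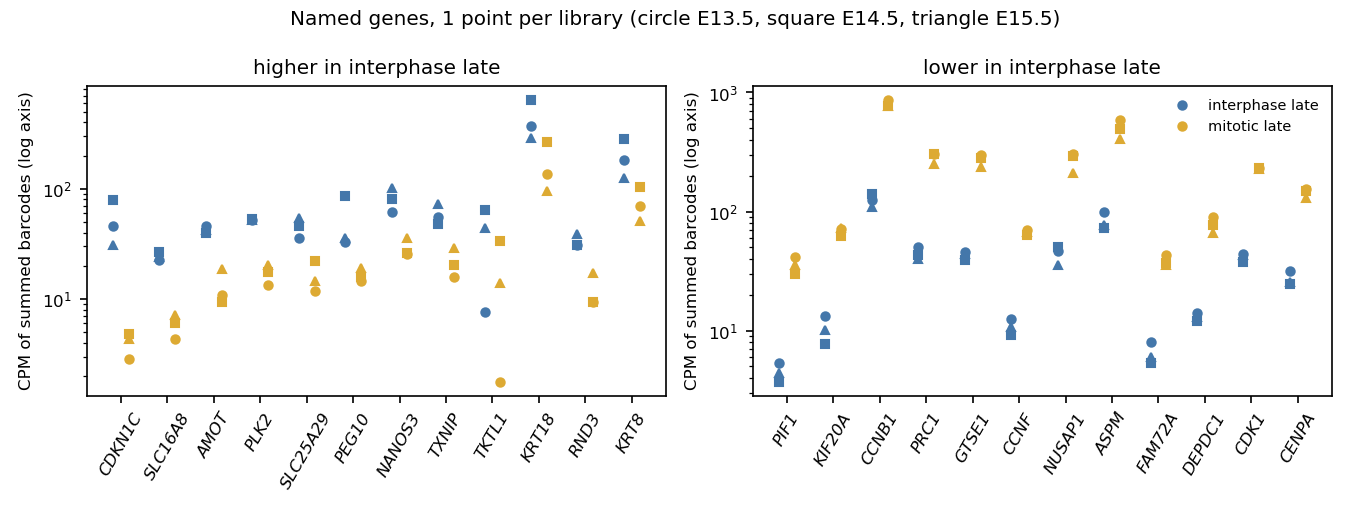
Level (CPM, log axis) of the 12 genes that rose most and the 12 that fell most in interphase late barcodes against mitotic late barcodes, with 1 point for each gate and library. CDKN1C shows the widest gap of the higher genes, 30.8 to 78.5 CPM in interphase late barcodes and 2.87 to 4.81 CPM in mitotic late barcodes, and TKTL1 shows overlapping points.

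All 30 tested G2 and M phase genes outside the rule were lower, with a median log2 fold change of -2.07. CCNB1, the mitotic cyclin, stood at 124, 139 and 109 CPM in interphase late barcodes and at 863, 769 and 767 CPM in mitotic late barcodes (-2.79 ± 0.08). CDK1, its kinase, stood at 43.9, 37.8 and 42.8 CPM in interphase late barcodes and at 231, 232 and 226 CPM in mitotic late barcodes (-2.56 ± 0.08). The cut was made on 6 genes of the same phase, so this describes the gate. The rest of the 12 lowest genes were PIF1, KIF20A, PRC1, GTSE1, CCNF, NUSAP1, ASPM, FAM72A, DEPDC1 and CENPA, with log2 fold changes of -3.08 to -2.49.

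Replication genes went both ways, 6 of 30 higher and 10 lower (10 and 8 with library totals alone), at a median of -0.04. Of all genes tested, 18% were higher and 19.8% lower. MCM6, a subunit of the replicative helicase, stood at 157, 135.1 and 156 CPM in interphase late barcodes and at 94.6, 104 and 115 CPM in mitotic late barcodes (0.42), and DTL, which marks CDT1 for destruction, at 50.3, 45.5 and 43.2 CPM against 32.5, 29.4 and 29.5 CPM (0.50). Neither was called in the lower 50% by mitotic score. RRM2, a ribonucleotide reductase subunit, stood at 56.6, 54.5 and 56.6 CPM in interphase late barcodes and at 88.2, 86.9 and 84.6 CPM in mitotic late barcodes (-0.72). The name interphase therefore covers barcodes with replication RNA.

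The G1 list was split, with 6 of 25 genes higher and 8 lower (8 and 7 with library totals alone). The shares of all genes were 18% and 19.8%. CCND1, a D-type cyclin, stood at 54.8, 43.3 and 45 CPM in interphase late barcodes and at 29.1, 28.8 and 32.7 CPM in mitotic late barcodes (0.55 ± 0.09, edgeR adjusted p = 4.0e-05), and its partner CDK6 stood at 12.1, 11.2 and 9.01 CPM against 3.14, 4.21 and 4.32 CPM (1.34). Other CDK inhibitors were lower. CDKN2D stood at 18, 19.2 and 19.1 CPM in interphase late barcodes and at 48.3, 49.3 and 39.3 CPM in mitotic late barcodes (-1.36), CDKN2C fell by 1.12 and CDKN1B by 0.65 on the log2 scale. CDKN1B stood at 205 to 243 CPM in mouse barcodes, whose CPM are on another scale.

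Genes of earlier germ cells were higher in the interphase late barcodes, where 18% of all genes were higher and 19.8% lower. The lists counted next share UTF1, which rose. Of 14 primordial germ cell specification genes 9 rose and 1 fell (median 0.32), and of 18 pluripotency-associated genes 10 rose and 0 fell (median 0.29; POU5F1, a gene of the rule, was not tested). TFAP2C, the transcription factor that the EGFP reporter tracks, stood at 9.25, 11.0 and 13.6 CPM in interphase late barcodes and at 6.83, 7.21 and 6.67 CPM in mitotic late barcodes (0.65 ± 0.14, edgeR adjusted p = 0.00091). NANOG stood at 16.6, 21.2 and 22.8 CPM in interphase late barcodes and at 11.3, 12 and 13.7 CPM in mitotic late barcodes (0.60), and LIN28A, which binds let-7 precursors, at 116, 118 and 116 CPM against 72.3, 91.3 and 72.5 CPM (0.49). The groups did not overlap for any of these 3 genes. PRDM1 (0.51), CXCR4 (0.59) and PDPN (0.38) rose as well, TFAP2A fell by 0.39, and SOX17 did not pass the test (0.26, edgeR adjusted p = 0.084). The 10 early oogonia markers together stood at 268, 301 and 348 CPM in interphase late barcodes and at 185, 204 and 221 CPM in mitotic late barcodes.

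Retinoic acid genes rose more often than they fell, 7 of 18 against 2 (median 0.23), where 18% of all genes were higher and 19.8% lower. Without barcodes found in more than 1 library these counts were 4 and 2 of 17 (median 0.03). REC8, the meiotic cohesin that retinoic acid induces in mice, stood at 108, 77.1 and 134 CPM in interphase late barcodes and at 37.1, 42.9 and 60.6 CPM in mitotic late barcodes (1.09 ± 0.10, edgeR adjusted p = 7.3e-09). CYP26A1, which degrades retinoic acid, stood at 21.7, 28.3 and 20.2 CPM in interphase late barcodes and at 10.4, 18.4 and 7.66 CPM in mitotic late barcodes (0.93 ± 0.15), and CRABP2, its intracellular carrier, at 132, 124 and 72.7 CPM against 87.1, 76.1 and 44.2 CPM (0.58 ± 0.12). REC8 did not overlap between the gates, while CRABP2 did across libraries and was higher within each.

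The meiotic axis list was split, 3 of 16 genes higher and 5 lower (4 and 4 with library totals alone), against 18% and 19.8% of all genes. STAG3, the partner of REC8 in meiotic cohesin, stood at 135.3, 107 and 154.6 CPM in interphase late barcodes and at 210, 194 and 232 CPM in mitotic late barcodes (-0.78), opposite to REC8, and SMC1B fell by 0.49. TEX12, of the synaptonemal complex centre, rose by 0.90 but was not called without barcodes that had 3 or more CDKN1C UMIs (log2 fold change 0.39). SYCP3 did not pass the test (-0.12, edgeR adjusted p = 0.23). In the piRNA list 7 of 21 genes rose and 1 fell: ASZ1 (1.16), FKBP6 (0.98), TEX15 (0.86) and MAEL (0.70) were among the higher, and PIWIL1 fell by 0.76. MAEL stood at 70.0, 66.2 and 78.7 CPM in interphase late barcodes and at 35.2, 39.5 and 48.8 CPM in mitotic late barcodes.

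Polycomb genes did not rise in any case, with 0 of 24 higher and 13 lower (median -0.20; 0 and 8 with library totals alone). PHF19, an accessory subunit of PRC2, stood at 25.9, 16.4 and 28.3 CPM in interphase late barcodes and at 69.7, 55.3 and 67.6 CPM in mitotic late barcodes (-1.53), and EZH2, its methyltransferase, at 141, 131 and 136 CPM against 201, 206 and 168 CPM (-0.58). SUZ12, also of PRC2, stood at 368, 321 and 298 CPM in interphase late barcodes and at 332, 312 and 288 CPM in mitotic late barcodes (-0.01, not called). Of 17 DNA methylation genes 1 rose and 4 fell, where 18% of all genes were higher and 19.8% lower. DNMT1, the maintenance methyltransferase, stood at 212, 193 and 175 CPM in interphase late barcodes and at 251, 300 and 235 CPM in mitotic late barcodes (-0.52). HOX genes gave 1 higher and 6 lower of 25, and the share of lower genes was near that of all genes. Without barcodes found in more than 1 library HOX genes gave 0 and 11.

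The stress response of dissociated cells was among the lists with the most calls, 7 of 13 genes higher and 3 lower (median 0.46), and 4 and 2 without barcodes found in more than 1 library. ATF3, an immediate early factor, stood at 15.51, 11.0 and 11.0 CPM in interphase late barcodes and at 3.41, 4.61 and 3.44 CPM in mitotic late barcodes (1.67), and 69.9 to 210 CPM in mouse barcodes. In 5 barcodes stood 75.9%, 77.5% and 39.9% of its UMIs, and without barcodes with 3 or more CDKN1C UMIs its log2 fold change was 0.65 (edgeR adjusted p = 0.074). The other lists gave 5 higher and 0 lower of 19 WNT genes, 6 and 1 of 20 p53 targets and 8 and 2 of 23 glycolysis genes. Cholesterol synthesis genes gave 3 and 1 of 21, and recombination genes 3 and 4 of 19. Germ cell RNA-binding genes gave 5 and 5 of 22, and BMP genes 3 and 4 of 21 (5 and 1 with library totals alone). Over all genes 18% were higher and 19.8% lower, and the recombination, RNA-binding and BMP counts lay near these shares.

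**Figure D4:**
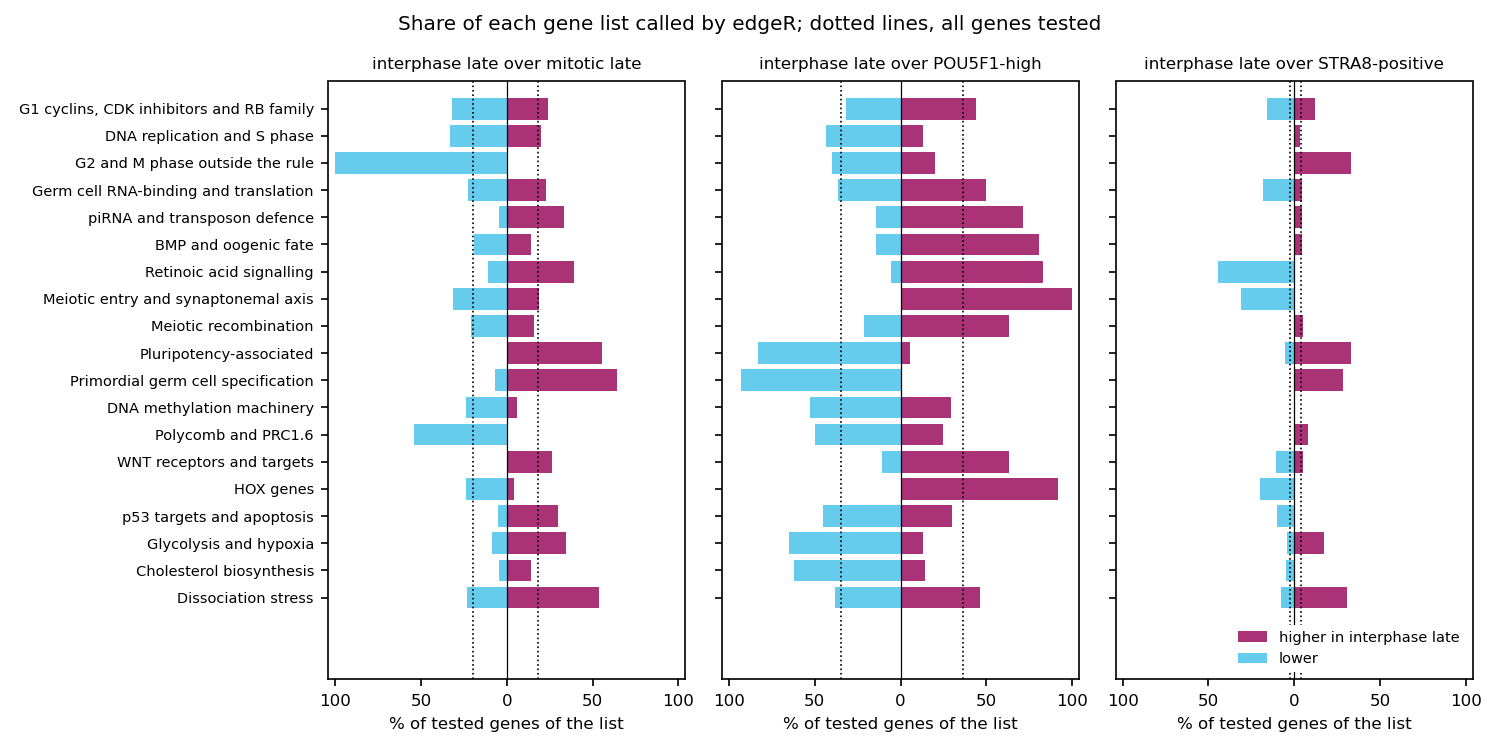
Percent of the tested genes of each list called higher or lower in interphase late barcodes, against mitotic late, POU5F1-high and STRA8-positive barcodes, with dotted lines at the percent over all 15060 genes. HOX, meiotic axis and retinoic acid genes stand far above the 36.5% line against POU5F1-high barcodes. Replication, G2 and M phase, Polycomb, DNA methylation, cholesterol, p53 and glycolysis genes have more lower than higher calls there. With library totals alone, which are not drawn, the median of all genes lay at 0.51 instead of 0.03. The balance of these 7 lists therefore depends on the scaling.

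The interphase late barcodes differed among themselves in early oogonia, premeiotic and replication RNA. Summed without POU5F1, STRA8 and ZGLP1, the early oogonia markers ran from a 10th percentile of 36.7, 38.7 and 70.9 CPM to a 90th percentile of 532, 573 and 667 CPM, and the premeiotic markers from 167, 144 and 153 CPM to 975, 789 and 848 CPM. Across barcodes, the Spearman rank correlation between these sums was -0.58 (195 barcodes), -0.47 (174) and -0.52 (322), and between the early oogonia sum and MSX1 it was -0.42, -0.44 and -0.47. These describe barcodes of 1 library each, which share that library and whose CPM share a total. Barcodes with more early oogonia RNA tended to hold less premeiotic and less MSX1 RNA in each library.

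Whether replication RNA varied apart from the early oogonia and premeiotic sums was not tested. The summed CPM of S phase genes had a Spearman correlation with the mitotic score of 0.35, 0.35 and 0.43 across barcodes. The division below was made on that sum, so its spread between tertiles is set by the division. The interphase late barcodes of each library were divided into tertiles by the summed CPM of the 30 S phase genes, whose median was 1388, 1146 and 1400 CPM in the lowest tertile and 4359, 4153 and 4417 CPM in the highest. DNMT1, which is not in that list, stood at 254, 266 and 235 CPM in the highest tertile and at 175, 120 and 117 CPM in the lowest. NANOS3 ran the other way, at 62.5, 55.7 and 78.5 CPM in the highest tertile and at 81.4, 119 and 121 CPM in the lowest. Median depth was 63324, 44005 and 49295 UMIs in the highest tertile and 46839, 38115.5 and 40462.5 UMIs in the lowest, so the tertiles also differ in depth. The summed supporting cell and stroma markers were 191, 166 and 167 CPM in the highest tertile and 249, 302 and 348 CPM in the lowest.

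A small set of interphase late barcodes carried most of the CDKN1C RNA. The split was made after the values were seen and is a description. Barcodes with 3 or more CDKN1C UMIs numbered 24, 24 and 27 and held 90.3%, 92.6% and 82.8% of its UMIs, while 134, 115 and 238 barcodes had none. The richest barcode of each library held 146, 264 and 150 UMIs. Barcodes with 3 or more CDKN1C UMIs were not particular to this gate. Leaving them out took interphase late barcodes from 195, 174 and 322 to 171, 150 and 295. It took STRA8-positive barcodes from 121, 82 and 234 to 105, 73 and 202. Mitotic late barcodes went from 98, 87 and 161 to 95, 85 and 156, and POU5F1-high barcodes from 65, 128 and 203 to 65, 127 and 203. Median depth was 55013.5, 41344.5 and 42987 UMIs in the CDKN1C-rich barcodes and 55915, 41164 and 43893.5 UMIs in those without, so the sets were of like depth.

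Over the 3 libraries, 3033 of 15059 genes (20.1%) were higher and 1915 (12.7%) lower in the CDKN1C-rich barcodes than in those without, with no overlap of values. Of 18 pluripotency-associated genes 0 were higher and 11 lower in this sense, and of 14 primordial germ cell genes 2 were higher (CXCR4 and ARID5B) and 6 lower. NANOS3 stood at 2.95, 46.3 and 11.3 CPM in CDKN1C-rich barcodes and at 82.3, 74.3 and 123 CPM in barcodes without CDKN1C. PDPN, a surface protein of primordial germ cells, stood at 2.22, 17.6 and 16.3 CPM in the rich set and at 59.96, 50.8 and 60.3 CPM in those without, and L1TD1, an RNA-binding protein of pluripotent cells, at 53.2, 128 and 60.2 CPM against 347, 296 and 281 CPM. TFAP2C overlapped, at 5.91, 10.2 and 15.6 CPM in the rich set and 11.0, 11.1 and 13.0 CPM in those without.

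Of 16 meiotic axis genes 13 were higher and 0 lower in the rich set. TEX12 stood at 88.6, 47.2 and 105.5 CPM in the rich set and at 7.05, 11.8 and 14.7 CPM in those without, and SYCP3, of the chromosome axis, at 307, 172 and 382 CPM against 120, 127 and 108 CPM, with E14.5 least apart for both. MSX1 stood at 413, 250 and 193 CPM in the rich set and at 151, 117 and 128 CPM in those without, whereas ZGLP1 stood at 19.2, 37.0 and 25.5 CPM against 65.1, 64.9 and 60.4 CPM. Replication genes gave 0 higher and 19 lower of 30. Dissociation stress genes moved with the set, 11 of 13 higher and 0 lower. ATF3 stood at 88.6, 45.3 and 51.7 CPM in the rich set and at 5.72, 5.57 and 6.09 CPM in those without, and FOS, also an immediate early factor, at 351, 278 and 382 CPM against 166, 85.9 and 98.5 CPM. The part of the stress response in these differences was not tested. Supporting cell and stroma markers summed to 230, 339 and 316 CPM in the rich set and to 211, 214 and 209 CPM in those without.

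**Figure D5:**
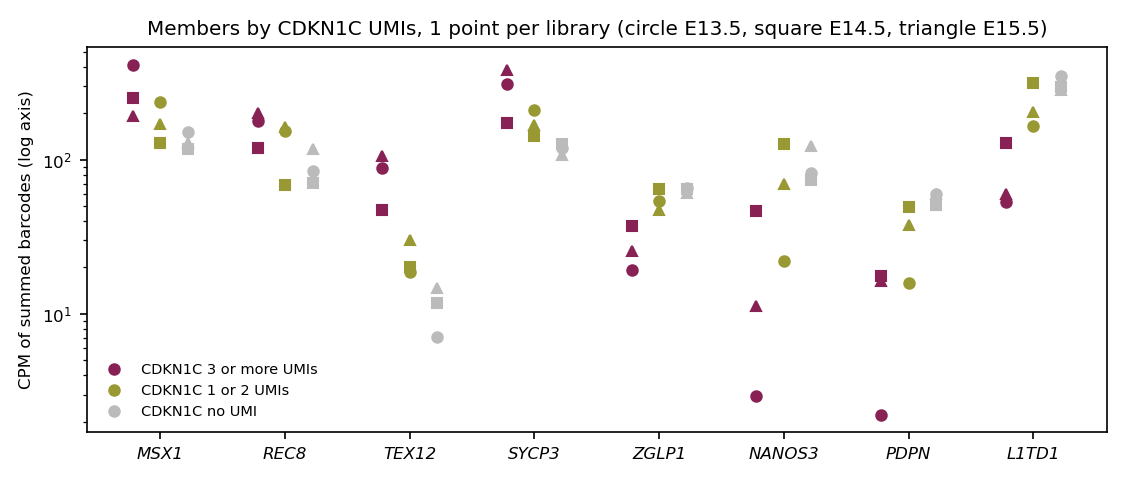
Level (CPM, log axis) of 8 genes in interphase late barcodes with 3 or more CDKN1C UMIs, with 1 or 2, and with none, 1 point per library. MSX1, REC8, TEX12 and SYCP3 are highest and ZGLP1, NANOS3, PDPN and L1TD1 lowest in the barcodes with 3 or more.

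Against POU5F1-high barcodes, the interphase late barcodes had more RNA of HOX genes, of the meiotic axis, of retinoic acid and BMP genes and of DDX4, ZGLP1 and MSX1, and less of the pluripotency and primordial germ cell genes. With the same fit, 5492 of 15060 genes were higher (36.5%) and 5215 lower (34.6%), so most genes were called. With library totals alone the median of all genes lay at 0.51 instead of 0.03 and 589 calls turned, so small folds in this comparison depend on the scaling. MSX1 stood at 199, 139 and 141 CPM in interphase late barcodes and at 3.25, 3.36 and 8.92 CPM in POU5F1-high barcodes (4.18 ± 0.16, edgeR adjusted p = 2.4e-16). ZGLP1 stood at 57.4, 60.6 and 54.7 CPM in interphase late barcodes and at 19.3, 17.5 and 20 CPM in POU5F1-high barcodes (1.11 ± 0.10), and DDX4 at 145.4, 127 and 128 CPM against 77.0, 60.1 and 70.7 CPM (0.46 ± 0.07). DAZL stood at 431, 365 and 374 CPM in interphase late barcodes and at 268, 205 and 256 CPM in POU5F1-high barcodes (0.20 ± 0.06, edgeR adjusted p = 0.0037), a call lost without the block (edgeR adjusted p = 0.091). No marker overlapped between the gates. Leaving out E15.5 moved the log2 fold change of MSX1 to 5.13 and, of the genes named next, that of PAX6 to 5.36, LHX1 to 4.88, NKX2-5 to 4.97, CRABP2 to 4.94 and LEF1 to 4.42.

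Of 25 tested HOX genes, which pattern the body axis, 23 were higher and 0 lower (median 2.99). HOXB5 stood at 63.8, 48.1 and 50.5 CPM in interphase late barcodes and at 0.50, 2.08 and 2.63 CPM in POU5F1-high barcodes (4.26 ± 0.24, edgeR adjusted p = 2.2e-13), and HOXB4 at 49.5, 55.0 and 47.6 CPM against 1.0, 4.81 and 3.47 CPM (3.42). Other developmental transcription factors were among the 12 largest rises. PAX6 stood at 95.5, 86.0 and 113 CPM in interphase late barcodes and at 0.50, 2.24 and 6.57 CPM in POU5F1-high barcodes (4.18 ± 0.18), and TBX5 at 20.5, 22.4 and 21.0 CPM against 0.25, 0.961 and 0.845 CPM (4.29 ± 0.27). LHX1 and NKX2-5 rose by 4.24 and 4.22, and the adaptor SKAP1, at 36.9, 31.5 and 25.5 CPM in interphase late barcodes and 0.25, 1.28 and 0.845 CPM in POU5F1-high barcodes, by 4.64. In POU5F1-high barcodes HOXB5, PAX6 and TBX5 were lowest in E13.5, and the interphase late values lay above all of theirs.

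All 16 meiotic axis genes were higher (median 1.63). SMC1B, a meiotic cohesin subunit, stood at 292, 243 and 229 CPM in interphase late barcodes and at 17.3, 36.8 and 30.5 CPM in POU5F1-high barcodes (2.61), and SYCP3 at 159, 137 and 144.8 CPM against 30.8, 33.5 and 37.5 CPM (1.59). Retinoic acid genes gave 15 higher and 1 lower of 18 (median 1.68), with CRABP2 at 132, 124 and 72.7 CPM in interphase late barcodes and 2.75, 3.04 and 5.73 CPM in POU5F1-high barcodes (4.05), and the receptor RARB at 35.5, 28.0 and 29.1 CPM against 6.0, 3.04 and 3.1 CPM (2.57). BMP and oogenic fate genes gave 17 higher and 3 lower of 21. ID3, a direct BMP target, stood at 272, 276 and 337 CPM in interphase late barcodes and at 60.8, 49.2 and 35.7 CPM in POU5F1-high barcodes (2.20), and GATA3 at 158, 130 and 141 CPM against 23.5, 14.1 and 17.8 CPM (2.50). WNT genes gave 12 higher and 2 lower of 19, among them LEF1 (3.62) and the target SP5 (3.16), and piRNA genes 15 higher and 3 lower of 21, with TDRD1 at 179, 131 and 115 CPM in interphase late barcodes and 25.3, 21.6 and 12.5 CPM in POU5F1-high barcodes (2.40). No gene named in these lists overlapped between the gates, but the share of all genes without overlap was not counted here.

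Of 14 primordial germ cell genes 0 were higher and 13 lower (median -1.86), and of 18 pluripotency-associated genes 1 was higher and 15 lower (median -2.12). NANOG stood at 16.6, 21.2 and 22.8 CPM in interphase late barcodes and at 264, 297 and 274 CPM in POU5F1-high barcodes (-4.25), and SOX17, which specifies primate germ cells, at 42.9, 42.8 and 45.9 CPM against 126, 144 and 156 CPM (-2.18). The exception was SOX2, at 15.0, 6.76 and 15.9 CPM in interphase late barcodes and at 0, 0 and 0.845 CPM in POU5F1-high barcodes. DNMT3L, a cofactor of de novo DNA methylation, stood at 1.87, 3.73 and 4.40 CPM in interphase late barcodes and at 85.8, 87.3 and 92.1 CPM in POU5F1-high barcodes (-5.19 ± 0.15), and GPHA2, a glycoprotein hormone subunit, at 6.08, 9.38 and 11.8 CPM against 243, 402 and 360 CPM (-5.66 ± 0.10). The lipid transporter ABCG1 fell most, by 6.86 on the log2 scale, and ACTG2, ADTRP, MYRIP, MAL, FXYD3, KLK4, C1H1orf54, EXOC3L1 and APOBEC3H fell by 4.99 to 6.42 (-7.04 for ADTRP, -6.84 for MYRIP and -6.74 for MAL without E15.5). CDKN1C (4.32), CTGF (4.63), TKTL1 (4.85), LIMCH1 (4.22) and HOXB6 (4.15) completed the 12 largest rises. Without E15.5 LIMCH1 stood at 5.37 and without E14.5 TKTL1 at 5.89, and CDKN1C was at 1.43 without barcodes with 3 or more of its UMIs.

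Against STRA8-positive barcodes the interphase late barcodes differed least. REC8 and retinoic acid genes were lower in interphase late barcodes, and NANOS3, PRDM1, UTF1 and ID4 were higher. With the same fit, 591 of 15060 genes were higher (3.92%) and 367 lower (2.44%), and 67 of the higher and 8 of the lower genes met a fold of 2. The comparison rests on the library block: 39 genes were called without it, and 213 without the E15.5 library. DDX4, DAZL, ZGLP1 and MSX1 did not pass the test, with log2 fold changes of 0.03, -0.16, -0.23 and -0.21 and edgeR adjusted p-values of 0.83, 0.087, 0.093 and 0.23. MSX1 passed it as lower without barcodes found in more than 1 library (-0.33, edgeR adjusted p = 0.022) and with thinned barcodes (-0.34, edgeR adjusted p = 0.0098).

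REC8 stood at 108, 77.1 and 134 CPM in interphase late barcodes and at 242, 247 and 285 CPM in STRA8-positive barcodes (-1.24 ± 0.09, edgeR adjusted p = 7.1e-09), without overlap, and it was called without the block as well. Together with its level in mitotic late barcodes, 37.1, 42.9 and 60.6 CPM, REC8 was lowest there, intermediate in interphase late barcodes and highest in STRA8-positive barcodes in each library. Of 18 retinoic acid genes 0 were higher and 8 lower (median -0.32), and 1 was called without the block. CYP26A1 stood at 21.7, 28.3 and 20.2 CPM in interphase late barcodes and at 27.5, 52.4 and 34.1 CPM in STRA8-positive barcodes (-0.64), RARB at 35.5, 28.0 and 29.1 CPM against 42.7, 48.9 and 41.4 CPM (-0.46), and ANHX at 182, 154.8 and 203 CPM against 234, 241 and 313 CPM (-0.50). Of these, CYP26A1 had 1 overlapping value and RARB and ANHX had none. In the meiotic axis list 0 of 16 were higher and 5 lower, with HORMAD1 at 50.3, 39.3 and 47.1 CPM in interphase late barcodes and 61.3, 64.9 and 58.4 CPM in STRA8-positive barcodes (-0.37), and MEIOC, which stabilises the meiotic programme, at -0.53. HOX genes gave 0 higher and 5 lower of 25.

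Some genes of earlier germ cells were higher. Primordial germ cell genes gave 4 higher and 0 lower of 14: UTF1 (0.75), PRDM1 (0.75), NANOS3 (0.67) and PDPN, at 45.1, 45.5 and 52.0 CPM in interphase late barcodes and 30.4, 26.8 and 36.5 CPM in STRA8-positive barcodes (0.59 ± 0.09, edgeR adjusted p = 0.00017). Pluripotency-associated genes gave 6 higher, led by TCL1B (1.41), and 1 lower of 18, LIN28A (-0.40). ID4, an inhibitor of bHLH factors, stood at 272, 291 and 215 CPM in interphase late barcodes and at 168, 173 and 128 CPM in STRA8-positive barcodes (0.77 ± 0.08). G2 and M phase genes gave 10 higher and 0 lower of 30 at the limited score, and 0 higher and 22 lower when STRA8-positive barcodes of any score were used, so their direction is set by the limit.

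The largest rises past the naming rule were TKTL1 (1.89 ± 0.23), VMO1, CDH3 and RGS10 (1.24 to 1.20) and NPY. TKTL1 was at 2.71 without E14.5, 1.25 without E15.5 and 1.25 without barcodes found in more than 1 library, and was not called without the block (edgeR adjusted p = 0.55). NPY, a neuropeptide, stood at 83.2, 117 and 111 CPM in interphase late barcodes and at 42.4, 40.0 and 62.0 CPM in STRA8-positive barcodes (1.06 ± 0.12), and the cofactor FHL2 at 60.4, 70.2 and 74.7 CPM against 31.4, 38.2 and 41.1 CPM (0.93 ± 0.08); neither overlapped. TUBB2A, SERPINB6, ASNS, GSTM5, NUSAP1 and CDKN1C rose by 0.89 to 0.94; NUSAP1 turned to -0.48 with STRA8-positive barcodes of any score, and CDKN1C to -0.41 without barcodes with 3 or more of its UMIs. CDKN1C was not called without the block (edgeR adjusted p = 0.17) or without barcodes found in more than 1 library (edgeR adjusted p = 0.76). After REC8 the largest falls were those of GAS1 (-0.88), IRF9 (-0.80), RFX6, SESN3, ZEB2, HOXB5, RGS16, PAK3, CRYGN, SKAP1 and TP53INP1, the last at -0.62. Over these 24 genes the edgeR adjusted p was at most 0.024. Without E15.5, GAS1, ZEB2, HOXB5, ASNS and CYP26A1 were not called (edgeR adjusted p = 0.065 to 0.11), nor was CRYGN without E14.5 or E15.5, and PAK3 lost its call without any 1 library (edgeR adjusted p = 0.062 to 0.084 for these 2).

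Between mouse stages the interphase late barcodes changed little. With 1 library per stage there is no test, and a gene was named where CPM + 1 differed at least 2-fold with at least 20 CPM in 1 library. Of E14.5 over E13.5, 13 of 7562 genes were higher (0.172%) and 15 lower (0.198%); of E15.5 over E13.5, 2 of 7674 were higher (0.0261%) and 17 lower (0.222%); of E15.5 over E14.5, 7 of 7564 were higher (0.0925%) and 13 lower (0.172%). Ratios within 1.5-fold were found for 98.0%, 98.1% and 97.9% of the genes. The interphase and mitotic late barcodes together made up 54.6% (exact Clopper-Pearson 95% interval 50.2% to 58.8%), 48.7% (44.4% to 53%) and 43.4% (40.5% to 46.4%) of the barcodes past the depth and mitochondrial limits, by rising stage. Intervals cover counting error only, and mouse stage cannot be told apart from library.

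The given markers moved by less than 2-fold. MSX1 stood at 199 CPM (exact Poisson 95% interval 191 to 208) in E13.5, 139 (131 to 148) in E14.5 and 141 (135.4 to 148) in E15.5, and ZGLP1 at 57.4 (52.9 to 62.1), 60.6 (55.0 to 66.5) and 54.7 CPM (51.0 to 58.6). MSX1 was highest in E13.5 beyond counting error, and the ZGLP1 intervals overlapped. NANOS3 was highest in E15.5, at 62.0 (57.3 to 66.9), 81.0 (74.6 to 87.8) and 102 CPM (97.4 to 108), and REC8 was lowest in E14.5, at 108, 77.1 and 134 CPM.

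TKTL1 moved most. It stood at 7.57 (6.01 to 9.41), 64.0 (58.3 to 70.1) and 44.3 CPM (41.0 to 47.9) by rising stage, with a log2 ratio of 2.92 for E14.5 over E13.5 and 2.40 for E15.5 over E13.5. Mitotic late barcodes had the same order, at 1.78, 33.5 and 13.8 CPM. A TKTL1 UMI was found in 6.15%, 23.0% and 16.5% of the interphase late barcodes, and 5 barcodes held 88.9%, 38.6% and 39.3% of its UMIs. INHA, the inhibin alpha subunit, was the other gene higher in E15.5 than in E13.5, at 11.2, 29.2 and 29.3 CPM, but mouse barcodes held 1777, 1827 and 1667 CPM and without the barcodes highest in mouse markers its log2 ratio was 0.28, while that of E14.5 over E13.5 was 1.97 (1.31 with them).

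Among lower genes, DPPA4, a pluripotency-associated chromatin protein, stood at 80.8, 67.6 and 39.7 CPM (E15.5 over E13.5, log2 ratio -1.01). The transcription factor ETS1 stood at 68.7, 42.5 and 32.7 CPM (-1.05), and GIP at 58.2, 50.9 and 24.4 CPM (-1.22). All 3 were in order of stage, and all 3 fell under the 2-fold limit in some alternatives, GIP at -0.94 without the 5% deepest barcodes and at -0.82 without barcodes found in more than 1 library. LOXL1, PPIA and H3F3A were lowest in E14.5: LOXL1 stood at 34.1, 10.5 and 25.2 CPM, PPIA at 64.4, 21.0 and 38.4 CPM and H3F3A at 49.3, 16.3 and 35.8 CPM. CDKN1C, PEG10, KRT8 and KRT18 were highest in E14.5, with log2 ratios of E15.5 over E14.5 of -1.32, -1.22, -1.19 and -1.15; among barcodes of at least 20000 UMIs CDKN1C was at -0.44 and PEG10 at -0.74. Of the 395 list genes found, only TKTL1, DPPA4, CDKN1C and BTG2 passed the size rule in any pair.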

How the data were processed

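Per the file headers, the authors made the deposited counts with Cell Ranger 6.0.1. They are unnormalized UMI counts of monkey genes (26017 features) in the called barcodes of 3 libraries (10x Genomics 3' v3.1). Genome build and annotation: not given in the sources used here. RefSeq names replaced 669 of the 9282 LOC identifiers. Doublets were not removed; refits left out the 5% deepest barcodes and the 5% highest in mouse markers. CPM are UMI counts over the UMIs of the barcodes summed.

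Counts summed per library and gate (12 sums, 6 residual degrees of freedom) were tested with edgeR 4.0.16 under R 4.3.3: filterByExpr, TMM, quasi-likelihood test, Benjamini-Hochberg adjustment over 15060 genes, threshold 0.05. The gates hold separate barcodes of the same library, so the library was the block. DESeq2 1.42.0 was an alternative. Sums and intervals were computed in Python 3.11.15 (scipy 1.17.1, pandas 2.3.3, numpy 2.4.6), figures with matplotlib 3.10.9. Scripts were tested on simulated data.

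The members and the 19 lists (403 genes, 395 found) were chosen with earlier results of these data known. Genes were named if called, in the same direction in 3 of 3 libraries and at 20 CPM or more in 1 gate: the 12 largest in each direction, without LOC, ribosomal, mitochondrial and rule genes. For stages the 8 largest in each direction were taken. List members and the markers were added. CDKN1C subsets were chosen after values were seen.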

Additional observations from a re-analysis of the deposited data

Results flagged for a closer look

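The same barcode sequence was found in more than 1 library for 686 barcodes, 502 of them in 2 libraries and 184 in all 3. E13.5 and E15.5 shared 643, E14.5 and E15.5 shared 212, and E13.5 and E14.5 shared 199. Where an interphase late barcode was shared between E13.5 and E15.5, it was 47.7 times deeper (median) than its copy. Without shared barcodes 3756 genes were called against mitotic late barcodes (5689 with them), 9510 against POU5F1-high barcodes (10707) and 687 against STRA8-positive barcodes (958). The source of the shared barcodes was not tested.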

How the results depend on the processing

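The calls against mitotic late barcodes, 5689 in all, were 2889 with no replicate block, 2231 with barcodes thinned to 10000 UMIs, 3756 without barcodes found in more than 1 library and 3720 to 4737 with 1 library left out. Against POU5F1-high barcodes, 10707 calls became 6573 when thinned and 8980 to 10383 with 1 library left out. Against STRA8-positive barcodes, 958 calls became 523 with DESeq2, 39 with no replicate block, 608 in the lower 50% by mitotic score, 453 when thinned and 213 to 497 with 1 library left out (484 without E13.5, 497 without E14.5, 213 without E15.5). Thinning lowers the counts that enter the fit; for the other settings the cause was not tested. Between stages, genes past the size rule numbered 78 when thinned against 28 for E14.5 over E13.5, 51 when thinned and 10 with a pseudocount of 5 CPM against 19 for E15.5 over E13.5, and 57 when thinned, 32 with mean CPM per barcode and 10 with a pseudocount of 5 CPM against 20 for E15.5 over E14.5. With POU5F1-high barcodes of any mitotic score, CCNB2 turned to -0.063 and BUB1 to -0.27, and RNF17 turned to 0.033 with library totals alone. With STRA8-positive barcodes of any score, NUSAP1 turned to -0.48 and KIF20A to -0.57, and CDKN1C turned to -0.41 without barcodes with 3 or more CDKN1C UMIs. Of the values of called named genes under all settings, 1245 against mitotic late barcodes kept their call and 88 lost it. Against POU5F1-high barcodes 1463 kept it, 19 lost it and 3 turned, and against STRA8-positive barcodes 756 kept it, 141 lost it and 3 turned, while 5 values of genes not called passed. The settings without shared barcodes, with DDX4 and DAZL UMIs required, with library totals alone and without CDKN1C-rich barcodes were chosen after seeing the data. Depth limits genes under about 1 CPM.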
